A study of Homo sapiens with 10 samples.

Results

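Expression of 10 genes of the Hippo pathway and of its YAP-responsive programme was followed in MRC5 cells, a human lung fibroblast line, given medium conditioned by A549 cells, a lung adenocarcinoma line used as a stand-in for alveolar epithelium. The genes were taken by name: the coactivators YAP1 and WWTR1 (TAZ), their DNA-binding partner TEAD1, the kinase LATS2, the scaffolds AMOTL1, AMOTL2 and PTPN14, and the YAP-responsive genes AXL, MYOF and ARHGEF17. Of these 10, 9 were found among the 14054 genes of the count table and all 9 were abundant enough to be tested. The level of LATS2 was not analysed here. Of the 10 libraries, 5 came from cells given medium of stretched A549 cells (stretch medium; libraries 2, 4, 6, 8 and 10) and 5 from cells given medium of A549 cells that were not stretched (static medium; libraries 1, 3, 5, 7 and 9). Both groups thus received A549 medium, and fibroblasts in fresh medium are not analysed here. The sample descriptions give an exposure of 24 hours and the series design gives 6 hours, so the time of exposure is not settled. Each cell type is represented by 1 line, and no label says whether libraries of 1 group are separate cultures, so the spread behind each p-value may be only technical.

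In the Hippo pathway, the kinases MST1 and MST2 (encoded by STK4 and STK3) with their adaptor SAV1 activate LATS1 and LATS2, which phosphorylate YAP and TAZ and thereby keep them in the cytoplasm. When the kinases are less active, as in cells that are spread, stretched or on a stiff matrix, YAP and TAZ enter the nucleus, bind TEAD factors and raise a set of genes that includes feedback inhibitors of the pathway itself. In lung fibroblasts YAP and TAZ are known for promoting matrix production and contraction. Control of YAP and TAZ is largely by phosphorylation and location, which transcript counts do not measure.

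Libraries held 4231653 to 8455073 counts. Of 10968 genes tested by the quasi-likelihood method of edgeR, 0 (0%) reached the adjusted threshold of 0.05, and 1804 (16.4%) had an unadjusted p under 0.05. DESeq2 called 275 genes and limma-voom 1. The fibroblast label was borne out by its 12 markers, all in the table, which summed to 14630 to 19120 CPM with stretch medium and 16500 to 18360 CPM with static medium (CPM are counts scaled to a common library size by TMM). Of 18 epithelial markers 9 were in the table and summed to 45.3 to 55.9 CPM with stretch medium and 41.2 to 52.5 CPM with static medium, with CDH1 at 0.108 and 0.213 CPM on average. Of 6 endothelial and leukocyte markers 4 were in the table, and CD68, a lysosomal protein gene that fibroblasts also express, held nearly all of their 182 to 235 CPM with stretch medium and 194 to 209 CPM with static medium. On the first principal component of all tested genes (24.8% of variance), stretch 4 stood with the static libraries, at -7.07. There the other stretch libraries scored 8.74 to 30.9 and the static ones -39.1 to -0.897. On the second (13.5%), stretch 4, 2 and 8 scored 20.2, 21.5 and 11.9, above the static range of -15.7 to 7.87. Stretch 6 and stretch 10, at -13.4 and -13.9, lay inside that range.

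Among the 9 genes, AMOTL2 and ARHGEF17 were higher with stretch medium in every library, TEAD1 was lower in 4 of 5, and YAP1 stayed inside the range of the static libraries. In edgeR 0 of the 9 passed over all genes, the smallest adjusted p being 0.136. An unadjusted p under 0.05 was seen for 3 of 9, with 2 higher, against 8.08% of all tested genes, and 1 lower, against 8.37%. DESeq2 called AMOTL2 alone, as higher, where it called 1.14% of all tested genes as higher, and limma-voom called 0. The groups did not overlap, in the higher direction, for 2 of 9, against 1.74% of all tested genes. The median log2 fold change of the 9 was 0.14, beside 0.00035 over all tested genes, with 6 above 0 and 3 below, where 50.1% of all tested genes were above 0.

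**Figure D1:**
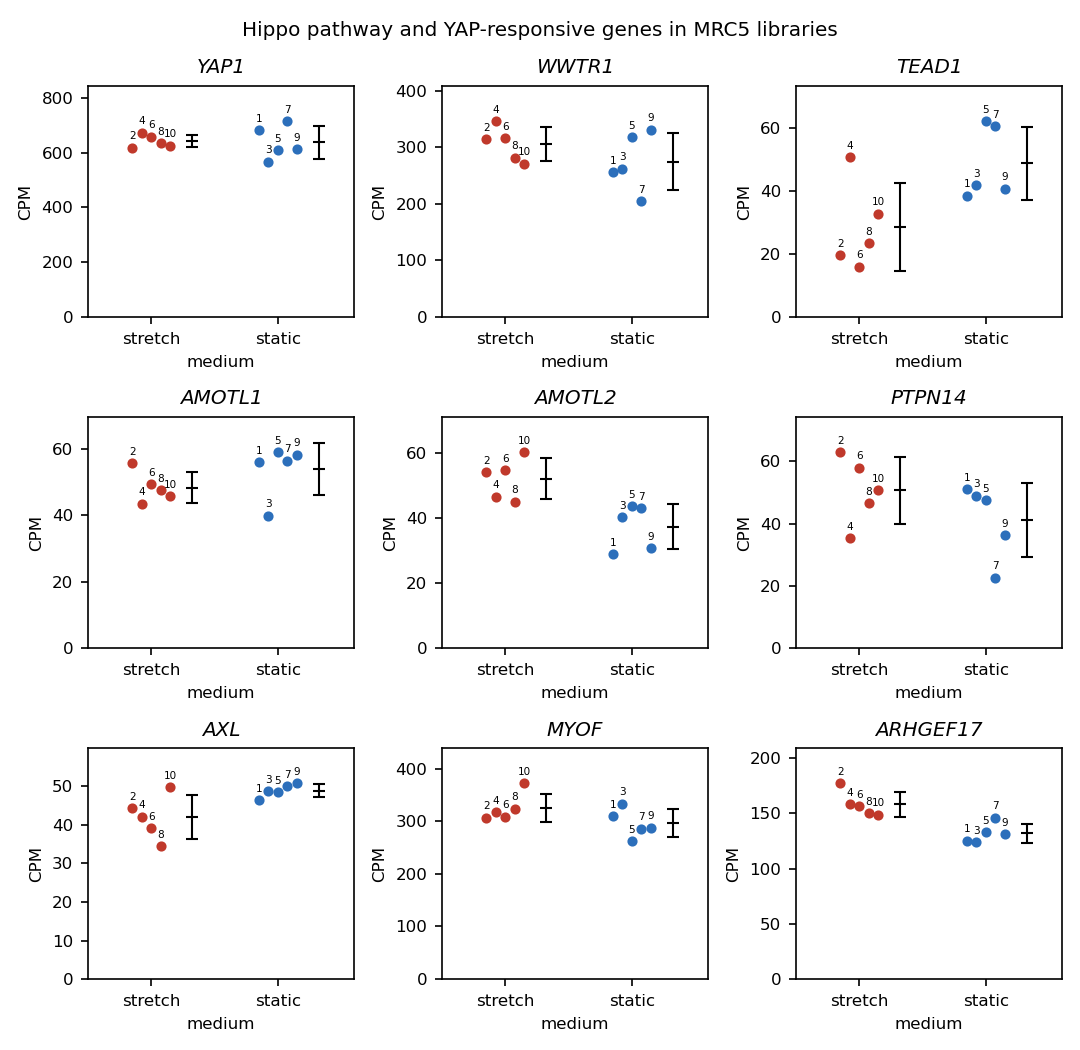
Level of each of the 9 genes in CPM (y axis, from 0) in the 5 stretch-medium libraries (red, left) and the 5 static-medium libraries (blue, right); the digit is the library number and the bar beside the points is the mean ± SD. The groups are apart for AMOTL2 and ARHGEF17, and TEAD1 is low in 4 stretch libraries but not in stretch 4.

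YAP1 (chromosome 11, 102110461 to 102233423, GRCh38) encodes the coactivator that the kinases restrain. It was at 618, 673, 658, 634 and 625 CPM in stretch 2, 4, 6, 8 and 10, and at 683, 567, 609, 714 and 613 CPM in static 1, 3, 5, 7 and 9. All stretch libraries lay inside the range of the static ones, and means were 641 ± 22.9 and 637 ± 59.8 CPM (SD, n = 5 each). Its log2 fold change of 0.010 had a 95% interval of -0.19 to 0.21 (edgeR adjusted p = 0.969), or 0.878 to 1.16 times the static level, and a sign that turned with upper quartile scaling and with single libraries left out. YAP1 counts were 2731 to 5471 per library, and its spread within groups was small: 92.8% of the 442 genes within a factor of 2 of its level had a larger SD.

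WWTR1 (chromosome 3, 149517235 to 149736714) encodes TAZ, the paralog of YAP. Its levels were 314, 346, 316, 282 and 271 CPM in stretch 2, 4, 6, 8 and 10, and 256, 262, 318, 205 and 331 CPM in static 1, 3, 5, 7 and 9. The groups overlapped, and the lowest library was static 7, in which YAP1 was at its highest. WWTR1 had a log2 fold change of 0.15 (interval -0.11 to 0.42, adjusted p = 0.569), which was 0.067 without static 7. The ratio of YAP1 to WWTR1 within a library, which does not depend on scaling, averaged 1.07 ± 0.11 log2 with stretch medium and 1.23 ± 0.38 log2 with static medium (SD, n = 5 each). The difference of -0.155 was within the spread (p = 0.460 in an exact two-sided permutation test and 0.690 after adjustment); it was -0.0136 without static 7 and -0.241 without static 9.

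TEAD1 (chromosome 11, 12674591 to 12944483) encodes the TEA domain factor that carries YAP and TAZ to DNA. It was at 19.7, 50.8, 16.0, 23.4 and 32.8 CPM in stretch 2, 4, 6, 8 and 10, and at 38.5, 41.9, 62.1, 60.6 and 40.8 CPM in static 1, 3, 5, 7 and 9. Of the stretch libraries 4 lay below all static ones, while stretch 4 lay above 3 of them. TEAD1 had a log2 fold change of -0.78 ± 0.25 (SE), or 0.581 times the static level with an interval of 0.402 to 0.840, and was the farthest from 0 of the 9, with an adjusted p of 0.155 in edgeR and 0.179 in DESeq2. Without stretch 4, its highest stretch library, it was -1.1 and edgeR's adjusted p was 0.0362, in a fit where 39 of 11070 genes passed. Leaving out the only stretch library inside the static range lowers the estimate by construction, so this adds no support. With any other single library left out the TEAD1 estimate ran from -0.856 to -0.626, with an adjusted p of 0.136 to 0.309. The highest stretch library was 3.18 times the lowest, and 1.1% of the 3993 genes within a factor of 2 of its level had a larger SD within groups. The lowest of the TEAD1 counts was 87. The libraries with the least TEAD1, stretch 6 and stretch 2, also lay farthest to the stretch side of the first principal component, and what this has to do with TEAD1 was not tested. Since the libraries are bulk RNA, fewer cells with TEAD1 transcript and less transcript per cell cannot be told apart.

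The other TEAD genes, which encode factors binding the same DNA letters, had estimates on either side of 0. TEAD3 was at 120 ± 13.4 CPM with stretch medium and 98.4 ± 13.8 CPM with static medium (SD, n = 5 each). Its log2 fold change of 0.29 had an interval of 0.038 to 0.55 and an edgeR p of 0.0268 unadjusted and 0.248 adjusted. TEAD2, at 13.3 ± 1.72 and 11.6 ± 2.60 CPM, had an interval of -0.17 to 0.56, and TEAD4, at 31.8 ± 7.14 and 34.7 ± 3.14 CPM, one of -0.44 to 0.20 (SD, n = 5 each, stretch medium first); these 2 were added after their values were seen, to complete the family. The interval of TEAD3 lay wholly above 0 and that of TEAD1 wholly below it, but a difference between TEAD genes was not tested. Of the vestigial-like cofactors, which compete for TEAD binding, VGLL3 and VGLL4 were tested. Of the 5 tested TEAD and VGLL genes other than TEAD1, 1 had an unadjusted p under 0.05, against 16.4% of all tested genes.

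**Figure D2:**
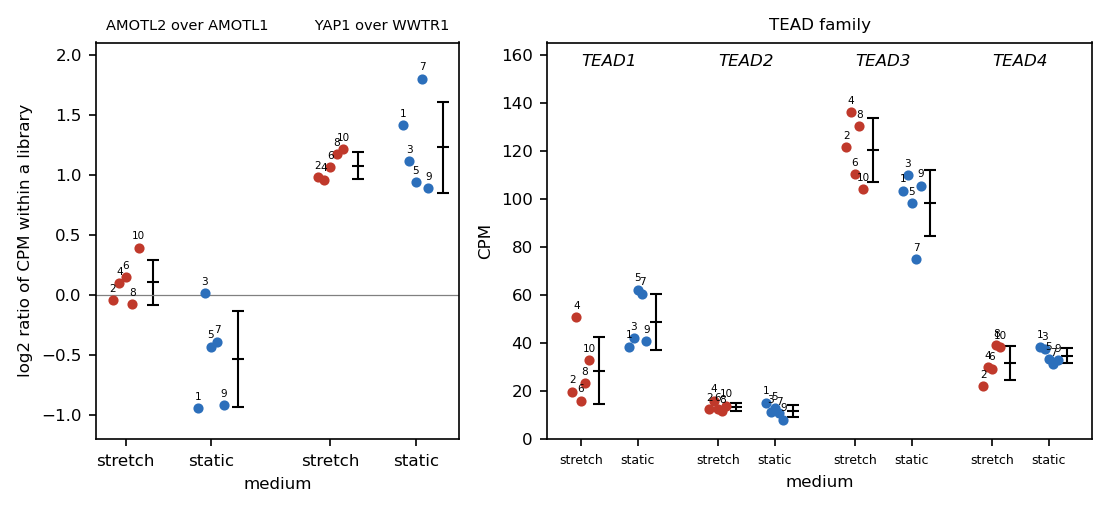
Left, log2 ratio of CPM within each library for AMOTL2 over AMOTL1 and for YAP1 over WWTR1; right, CPM of TEAD1 to TEAD4, in stretch-medium libraries (red) and static-medium libraries (blue), with library numbers and mean ± SD bars. TEAD3 averages 120 and 98.4 CPM and TEAD1 28.5 and 48.7 CPM with stretch and static medium, and only static 3 of the static libraries has an AMOTL2 to AMOTL1 ratio inside the stretch range.

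Transcripts of the kinases and adaptors upstream of YAP had estimates near 0. The list of this cassette held 17 genes, 16 were in the table and 14 were tested. In edgeR 0 passed over all genes and 0 had an unadjusted p under 0.05, where 16.4% of all tested genes did; DESeq2 and limma-voom also called 0. The 14 log2 fold changes ran from -0.26 for MAP4K5 to 0.18 for MINK1, with a median of 0.0033, and their 95% intervals together spanned -0.64 to 0.42. LATS1 (chromosome 6, 149658153 to 149718256), the paralog of LATS2 and the kinase that phosphorylates YAP, was at 80.8, 84.1, 75.3, 79.5 and 79.4 CPM in stretch 2, 4, 6, 8 and 10, and at 70.1, 66.4, 89.6, 87.6 and 84.7 CPM in static 1, 3, 5, 7 and 9. The stretch libraries were the tighter group and lay inside the static range. Its log2 fold change of 0.00093 (-0.23 to 0.23) changed sign under 7 of 18 alternatives. NF2, the gene of the upstream activator merlin, was at 237 and 236 CPM on average with stretch and static medium. STK4, at 3 to 23 counts per library, was too low to test.

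AMOTL2 (chromosome 3, 134355874 to 134375479) encodes an angiomotin-family scaffold that binds YAP at cell junctions and activates LATS kinases, and is itself a target of YAP. It was at 54.1, 46.6, 54.8, 45.1 and 60.3 CPM in stretch 2, 4, 6, 8 and 10, and at 29.0, 40.3, 43.7, 43.1 and 30.7 CPM in static 1, 3, 5, 7 and 9. Every stretch library lay above every static one, though stretch 8 exceeded static 5 by little. AMOTL2 had a log2 fold change of 0.47 ± 0.14 (SE), or 1.39-fold with an interval of 1.13 to 1.71, the highest of the 9. DESeq2 gave an adjusted p of 0.0496, just under the threshold, while edgeR gave 0.136 and limma-voom 0.143. Over 18 alternatives the estimate stayed between 0.40 and 0.54, with an adjusted p of 0.0477 to 0.262.

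AMOTL1 (chromosome 11, 94706431 to 94876753), the paralog, was at 55.7, 43.5, 49.4, 47.7 and 45.8 CPM in stretch 2, 4, 6, 8 and 10, and at 56.1, 40.0, 59.0, 56.5 and 58.3 CPM in static 1, 3, 5, 7 and 9. Of the static libraries 4 lay above all stretch ones, and static 3 below all of them. AMOTL1 had a log2 fold change of -0.16 (interval -0.42 to 0.11, adjusted p = 0.567), or -0.25 without static 3. The difference between the paralogs was looked at directly, in a comparison chosen with the AMOTL2 result known. The log2 ratio of AMOTL2 to AMOTL1 within a library averaged 0.10 ± 0.19 with stretch medium and -0.53 ± 0.40 with static medium (SD, n = 5 each), a difference of 0.64. The exact two-sided permutation test gave p = 0.0238, where the design cannot go below 0.00794, and an adjusted p of 0.0714 over the 3 paralog ratios fixed, of which LATS2 to LATS1 could not be computed. Static 3, at 0.013, was the only static library inside the stretch range of -0.080 to 0.39. Without it the adjusted p was 0.0238, the lowest that the remaining libraries allow. Leaving out the only overlapping library fixed that outcome, so it adds no support. AMOT, the third angiomotin gene, was at 8.21 and 7.59 CPM on average with stretch and static medium, and its log2 fold change of 0.12 had an adjusted p of 0.814.

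PTPN14 (chromosome 1, 214348696 to 214552449) encodes a phosphatase that holds YAP in the cytoplasm and is also a YAP-responsive gene. It was at 62.9, 35.2, 57.9, 46.7 and 50.6 CPM in stretch 2, 4, 6, 8 and 10, and at 51.0, 48.9, 47.5, 22.6 and 36.4 CPM in static 1, 3, 5, 7 and 9. The groups overlapped, with stretch 4 low among its group and static 7 lowest of the 10, the reverse of TEAD1, which was high in both. PTPN14 had a log2 fold change of 0.30 (interval -0.12 to 0.72, adjusted p = 0.472), which became 0.14 without static 7. Only 3.15% of the 3869 genes within a factor of 2 of its level had a larger SD within groups, next to 41.7% of 3866 for AMOTL2.

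**Figure D3:**
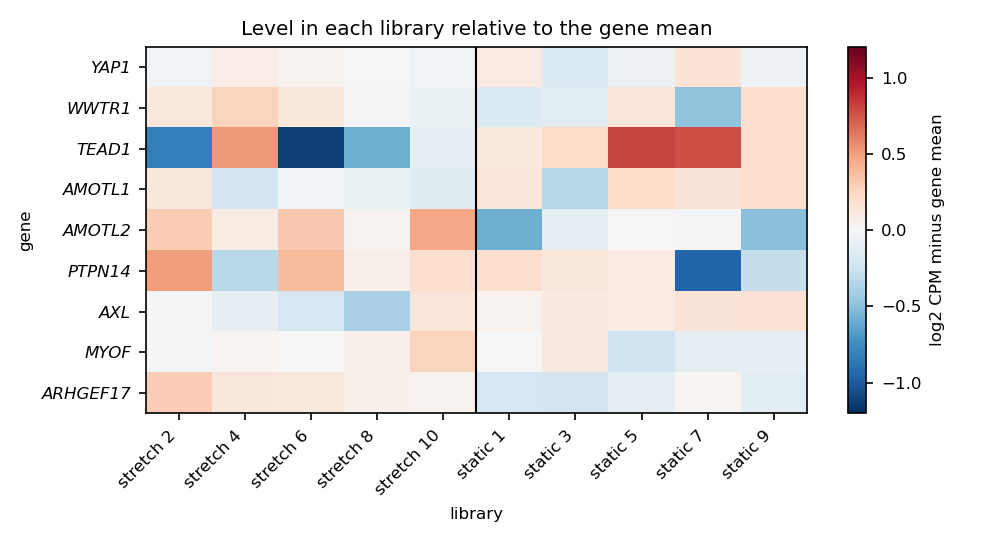
Level of the 9 genes (rows) in each library (columns; stretch medium left of the line, static medium right) as log2 CPM minus the gene's mean over the 10 libraries, red above and blue below it. AMOTL2 and ARHGEF17 are above their mean in all 5 stretch libraries, TEAD1 ranges from -1.13 in stretch 6 to 0.81 in static 5, and PTPN14 is at -0.965 in static 7.

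The YAP-responsive genes proper did not share a direction. ARHGEF17 (chromosome 11, 73308289 to 73369388), a guanine nucleotide exchange factor for small GTPases, was at 177, 158, 157, 150 and 149 CPM in stretch 2, 4, 6, 8 and 10, and at 125, 124, 133, 146 and 131 CPM in static 1, 3, 5, 7 and 9. The groups did not overlap. ARHGEF17 had a log2 fold change of 0.26 ± 0.096 (SE; interval 0.058 to 0.46), with an adjusted p of 0.204 in edgeR and 0.0990 in DESeq2. Its spread within groups was small, as 96.3% of the 2205 genes within a factor of 2 of its level had a larger SD.

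AXL (chromosome 19, 41219203 to 41261766), a receptor tyrosine kinase, was at 44.4, 42.1, 39.2, 34.5 and 49.8 CPM in stretch 2, 4, 6, 8 and 10, and at 46.4, 48.8, 48.4, 50.1 and 50.8 CPM in static 1, 3, 5, 7 and 9. It was thus low in 4 stretch libraries, while stretch 10 lay among the static ones, which were tightly grouped. Its log2 fold change was -0.22 (interval -0.47 to 0.020, adjusted p = 0.344). MYOF (chromosome 10, 93306429 to 93482317), the gene of the membrane repair protein myoferlin, was at 307, 317, 309, 324 and 372 CPM in stretch 2, 4, 6, 8 and 10, and at 310, 333, 263, 286 and 288 CPM in static 1, 3, 5, 7 and 9. The groups overlapped, and the fitted log2 fold change was 0.14 (interval -0.072 to 0.35, adjusted p = 0.503), or 0.085 without stretch 10. That library was the highest library for MYOF and for AMOTL2.

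AMOTL2, PTPN14, AXL, MYOF and ARHGEF17 belong, with LATS2, to a widely used signature of 22 YAP and TAZ target genes. Of the other 16 genes of that signature 15 were in the table and 14 were tested, with 7 above 0 and 7 below and a median log2 fold change of 0.0032. In edgeR 0 passed over all genes, and 2 had an unadjusted p under 0.05, 1 in each direction, against 8.08% higher and 8.37% lower among all tested genes. DESeq2 and limma-voom called 0. The 2 genes were CCN2 and F3. CCN2 (chromosome 6, 131948176 to 131951373), which encodes connective tissue growth factor, was at 385, 338, 442, 345 and 401 CPM in stretch 2, 4, 6, 8 and 10, and at 306, 298, 287, 346 and 275 CPM in static 1, 3, 5, 7 and 9. Only static 7 reached the stretch range, and the log2 fold change was 0.34 ± 0.11 (SE), with an adjusted p of 0.146 in edgeR and 0.0539 in DESeq2.

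F3 (chromosome 1, 94529225 to 94541800), the tissue factor gene that starts coagulation, was at 190, 180, 123, 197 and 235 CPM in stretch 2, 4, 6, 8 and 10, and at 225, 215, 260, 260 and 326 CPM in static 1, 3, 5, 7 and 9. It was below the static range in 4 of 5 stretch libraries, and its log2 fold change was -0.48 ± 0.15 (SE, adjusted p = 0.152). CCN1, the close relative of CCN2 and as often used to read out YAP, had an interval of -0.55 to 0.20. ANKRD1, another common readout, had 0 to 4 counts per library and could not be tested. Of 6 further YAP targets 4 were tested and 2 had an unadjusted p under 0.05, both higher, against 8.08% of all tested genes: the Wnt inhibitor gene DKK1, at 0.43 (adjusted p = 0.159), and the thrombospondin gene THBS1, at 0.45 (adjusted p = 0.208). Without stretch 10 the THBS1 estimate was 0.28 (adjusted p = 0.378).

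Promoter letters were read to see which of these genes carry the sequence that TEAD factors bind. The windows are RefSeq's (GRCh38.p14), each 300 bases long, with 250 before and 50 after an annotated start. The search covered GGAATG on both strands (its reverse complement is CATTCC), and the AP-1 letters TGANTCA, which read the same on both strands and shared no base with it in the windows searched. Of the 10 genes 8 had a window, 11 windows in all; TEAD1 and ARHGEF17 had none. The TEAD letters were in 5 of the 11 windows, 1 each for YAP1, LATS2, AMOTL2, PTPN14 and AXL, where 14.0% of all 35116 windows hold them; the AP-1 letters were in 0 of 11, against 7.7% of all windows. AMOTL2 and CCN2, on average higher with stretch medium, and AXL, on average lower, are shown for comparison, with the TEAD letters in capitals:
AMOTL2, chr3:134374398-134374697, minus strand: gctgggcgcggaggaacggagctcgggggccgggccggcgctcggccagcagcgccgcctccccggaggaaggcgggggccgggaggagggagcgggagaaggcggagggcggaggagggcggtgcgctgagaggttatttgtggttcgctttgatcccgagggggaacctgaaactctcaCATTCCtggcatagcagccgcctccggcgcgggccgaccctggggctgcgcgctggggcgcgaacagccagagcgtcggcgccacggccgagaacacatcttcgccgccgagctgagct
CCN2, chr6:131951323-131951622, minus strand: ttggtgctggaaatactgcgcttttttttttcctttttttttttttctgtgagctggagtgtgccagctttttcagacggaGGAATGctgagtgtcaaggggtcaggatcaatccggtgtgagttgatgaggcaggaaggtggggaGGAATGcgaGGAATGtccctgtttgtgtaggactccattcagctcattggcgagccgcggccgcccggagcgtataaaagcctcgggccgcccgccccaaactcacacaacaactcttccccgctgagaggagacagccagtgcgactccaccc
AXL, chr19:41226505-41226804, plus strand: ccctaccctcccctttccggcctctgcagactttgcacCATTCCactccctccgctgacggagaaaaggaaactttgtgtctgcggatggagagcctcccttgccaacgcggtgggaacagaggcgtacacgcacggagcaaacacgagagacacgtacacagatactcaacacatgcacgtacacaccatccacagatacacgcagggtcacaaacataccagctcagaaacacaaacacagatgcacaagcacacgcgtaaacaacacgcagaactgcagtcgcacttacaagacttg

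The AMOTL2 match began 69 bases before this start, and the other AMOTL2 window, at an earlier start, had none. CCN2 had 3 matches, beginning 169, 104 and 95 bases before its start, and 0.128% of all windows have 3 or more. The AXL match began 212 bases before the later of its starts, and the window at its earlier start had none. The F3 window had no TEAD letters and 2 AP-1 matches. The letters were thus found before genes with estimates above 0, below 0 and near 0, and a match is a description of the sequence, not a site of binding.

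Regulators that act on the kinase cassette lay on both sides of 0. Of 28 such genes 26 were tested and 9, or 34.6%, had an unadjusted p under 0.05, against 16.4% of all tested genes; 6 were higher and 3 lower. In edgeR 0 passed over all genes, DESeq2 called 1, as lower, where it called 1.37% of all tested genes as lower, and limma-voom called 0. The gene DESeq2 called was PPP2CA (chromosome 5, 134194334 to 134226142), which encodes a catalytic subunit of protein phosphatase 2A, the enzyme that the STRIPAK complex directs against MST1 and MST2. It was at 20.8, 48.3, 26.6, 30.5 and 44.2 CPM in stretch 2, 4, 6, 8 and 10, and at 54.5, 58.3, 70.7, 60.7 and 52.3 CPM in static 1, 3, 5, 7 and 9. PPP2CA levels did not overlap between groups, in the lower direction, which held for 1.98% of all tested genes. Its log2 fold change was -0.80 ± 0.19 (SE), with an adjusted p of 0.0982 in edgeR and 0.00777 in DESeq2. The edgeR value was 0.0362 without stretch 4, the highest stretch library, and 0.0872 to 0.217 with any other single library left out. Leaving out the highest stretch library lowers the estimate by construction, so the value without stretch 4 adds no support. PPP2CB encodes a near-identical protein, and whether reads were split between these genes was not tested.

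The polarity scaffold genes DLG5 and DLG1 lay apart in opposite directions. With PPP2CA they made up the 3 of 26 tested regulators (11.5%) without overlap between groups, against 3.72% of all tested genes. DLG5 was at 253, 254, 241, 241 and 293 CPM in stretch 2, 4, 6, 8 and 10, and at 220, 227, 193, 154 and 191 CPM in static 1, 3, 5, 7 and 9, a log2 fold change of 0.38 with no overlap (adjusted p = 0.140 in edgeR, 0.0518 in DESeq2). DLG1 was at 44.4, 52.0, 32.7, 41.0 and 37.2 CPM in stretch 2, 4, 6, 8 and 10, and at 52.8, 59.1, 60.6, 52.1 and 52.1 CPM in static 1, 3, 5, 7 and 9, a log2 fold change of -0.42, also with no overlap but with stretch 4 next to the static libraries (adjusted p = 0.141 in edgeR, 0.0614 in DESeq2). Further regulators with an unadjusted p under 0.05, named after their values were seen, included the STRIPAK genes PPP2R1A, at a log2 fold change of 0.33, and STRN, at -0.28, the cadherin gene DCHS1 (0.44) and the LIM protein gene WTIP (0.37).

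**Figure D4:**
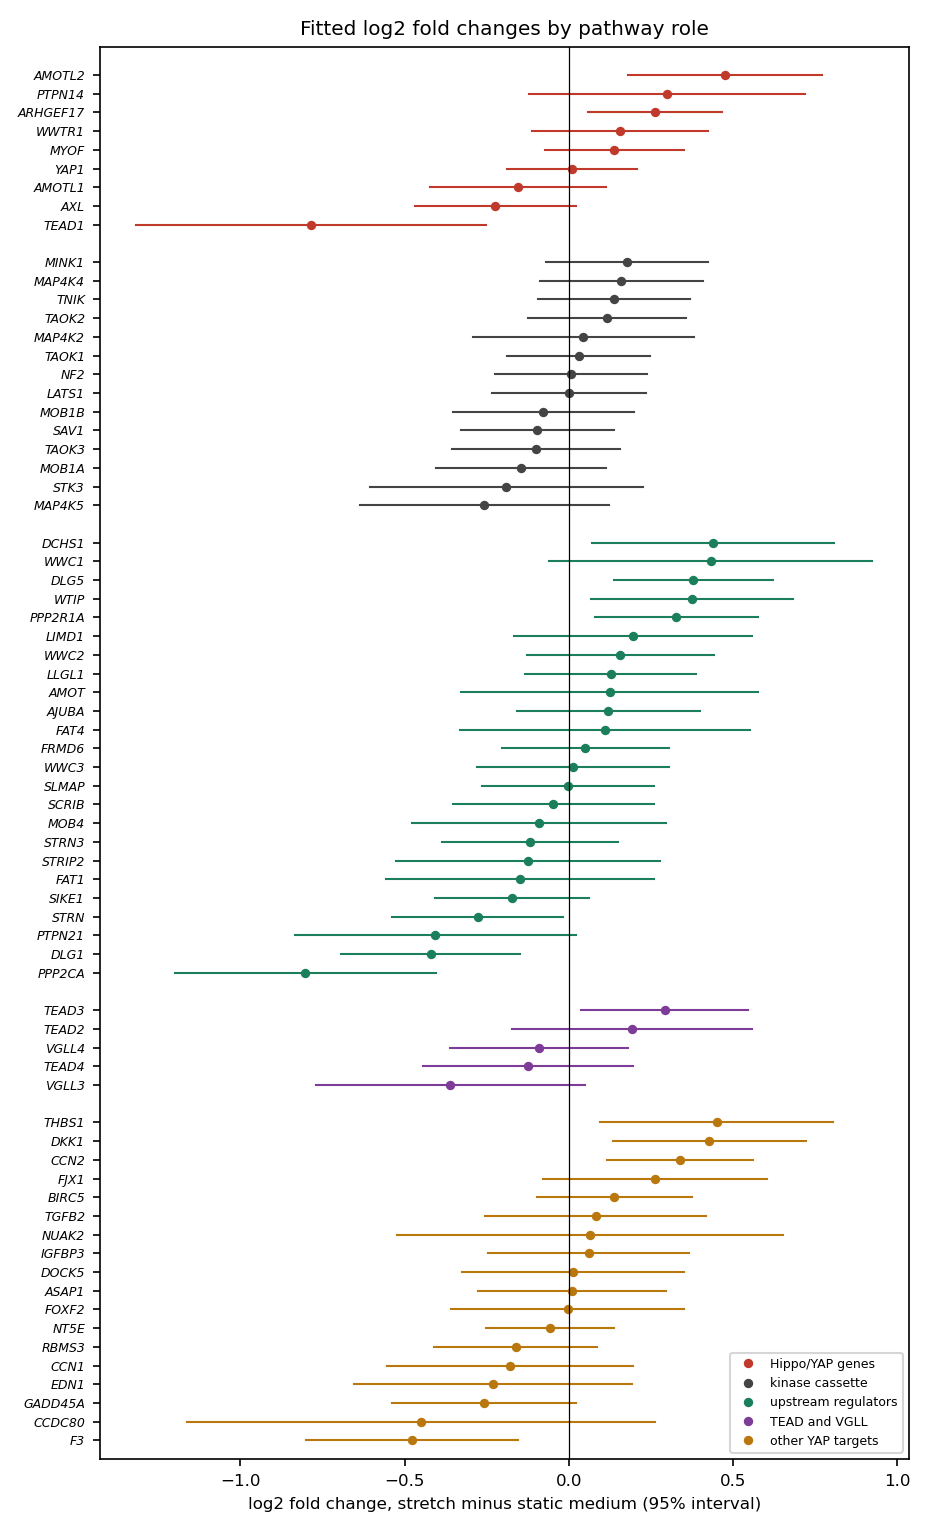
Log2 fold change, stretch minus static medium, with its 95% interval (x axis) for the 9 genes (red), the kinase cassette (grey), upstream regulators (green), TEAD and VGLL genes (purple) and other YAP targets (amber), each group sorted from high to low; 24 of the 26 tested regulators are drawn. Every interval of the kinase cassette spans 0, while TEAD1 at -0.78 and PPP2CA at -0.80 lie farthest to the left.

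Genes whose levels followed those of a member most closely over the 10 libraries were named by the root mean square difference of log2 CPM, each gene centred on its own mean, among 10968 tested genes. The 3 nearest to AMOTL2 were MLKL, HSD3B7 and POLR1B, with differences of 0.129, 0.137 and 0.156 log2 beside an AMOTL2 SD of 0.321. Their log2 fold changes were 0.35, 0.35 and 0.29, with edgeR adjusted p of 0.345, 0.242 and 0.333. That these share the direction of AMOTL2 follows from the choice of genes. The 3 nearest to YAP1 were DYNC2H1, TFPI and SND1, with differences of 0.0537, 0.0551 and 0.0574 log2, a measure that favours steady genes, since the SD of YAP1 itself was 0.0914.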

How the data were processed

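Libraries were made from total RNA with the Ion AmpliSeq Transcriptome kit, which amplifies a short target per gene by multiplex PCR, per the labels' protocols. Group differences were therefore read across libraries, within a gene or a pair of paralogs. Marker sums and the choice of genes of like level did set genes side by side, and are rough for that reason. The authors deposited 1 table of unscaled, whole-number counts, a row per Ensembl gene. GRCh38, fastp 0.20.1 and Salmon 1.9 are named in the submitters' processing notes; settings, annotation and use of strand are not stated there. No molecular identifiers are mentioned, so counting floors (3 counts, 0.354 to 0.679 CPM) cover counting error only. In the table no gene was above 0 in fewer than 5 libraries. Symbols were found for 13831 identifiers; positions are from GENCODE 29.

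Genes were kept by filterByExpr (minimum count 10, minimum total 15), scaled by TMM and tested in R 4.3.3 with edgeR 4.0.16 (quasi-likelihood, stretch minus static, Benjamini-Hochberg over 10968 genes, threshold 0.05). DESeq2 1.42.0 and limma 3.58.1 (voom) were alternatives. Log2 CPM used a prior count of 2. The fit was tested on simulated data, with an outcome that is not reported here. Pairs of libraries within a group gave a chi-square per degree of freedom of 6.05 to 25.1, more than counting error alone gives. Each library was counted as a sample, though this value cannot tell separate cultures from repeat preparations of the same RNA. No tested member overlapped another gene of the table. Paralog ratios were compared by exact permutation over 252 arrangements.

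The genes and lists were chosen from general knowledge with earlier results of these data known. Named genes were the 10, LATS1, up to 4 of each list with the smallest unadjusted p under 0.05, and the 3 nearest in pattern to AMOTL2 and YAP1. Any other gene with values was named outside this rule, with its values seen. Of the upstream regulators, 2 are counted but not reported by name here, 1 of which the rule selects.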

Additional observations from a re-analysis of the deposited data

Results flagged for a closer look

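Of 54 groups of 5 libraries checked for a library far from the others, 3 were flagged, where chance flags about 1 in 20. AMOTL1 in static 3 was at 40.0 CPM, against 56.1 to 59.0 CPM in the other static libraries. MYOF in stretch 10 was at 372 CPM, against 307 to 324 CPM in the other stretch libraries. DLG5 in stretch 10 was at 293 CPM, against 241 to 254 CPM in the other stretch libraries.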

How the results depend on the processing

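The count of genes past the threshold, 0 in edgeR, was 275 in DESeq2, 269 in DESeq2 on all genes of the table (an alternative chosen after seeing the data), 1 in limma-voom and 61 at a threshold of 0.1. With single libraries left out it ran from 0 to 39, with 39 without stretch 4, 2 without stretch 6 and 1 without stretch 10. Other scalings and filters left it at 0. The AMOTL2 to AMOTL1 difference ran from 0.54 to 0.77 with single libraries left out. Its adjusted p was under 0.05 only without static 3, the only static library inside the stretch range. AMOTL2 passed in DESeq2 (adjusted p = 0.0496, and 0.0477 on all genes), PPP2CA in DESeq2 and without stretch 4, and TEAD1 without stretch 4. Stretch 4 is the highest stretch library for both PPP2CA and TEAD1, so leaving it out adds no support. Only estimates close to 0 changed sign. YAP1 was at -0.0064 with upper quartile scaling. LATS1 was at -0.018 with upper quartile scaling, -0.00082 with library totals and -0.0073 with the filter of 50 counts in 5 libraries, and DYNC2H1 at 0.0030 in limma-voom. With single libraries left out, YAP1 ran from -0.032 to 0.055, LATS1 from -0.063 to 0.047, DYNC2H1 from -0.048 to 0.070, TFPI from -0.061 to 0.0060 and SND1 from -0.070 to 0.022. The cause of these changes was not tested. The ratio of LATS2 to LATS1 was not run, since the level of LATS2 was not analysed here. No paired analysis was run, since no label states a pairing and the groups share no title number. Whether libraries were made in pairs is not known.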
